A study of Culex pipiens pallens and Culex quinquefasciatus with 12 samples.

Results

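Cytosolic ribosomal proteins are the protein parts of the ribosomes that translate nuclear mRNA in the cytoplasm. Their gene models were chosen from the deposited tables by the description alone: the words "ribosomal protein", without "mitochondr", "kinase", "39S" or "28S", and with 1 further model left out by its identifier (CPIJ007287-RA). This gave 185 of the 17757 gene models in the tables. The transcripts were measured by RNA-seq of poly(A) RNA from whole larvae of the house mosquito *Culex pipiens*, in 5 libraries of the subspecies *Culex pipiens quinquefasciatus* and 7 libraries of *Culex pipiens pallens*. Each library came from RNA of 30 larvae, and the library kit did not keep the strand. Levels of resistance are mentioned in the title of the series, but no label gives a level, a strain, a larval age or a treatment for any library, so subspecies was the factor compared. Nothing in the labels ties the pools to separate strains or rearings, so a p-value here measures only the spread between these libraries, which may be technical.

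A ribosome has a small subunit, which holds the mRNA and reads its codons, and a large subunit, which joins amino acids and holds the tunnel through which the new chain leaves. Each subunit is a body of ribosomal RNA with one copy of most of its proteins, named S (or SA) for the small and L for the large subunit, while the acidic proteins P1 and P2 sit on P0 in a flexible stalk that recruits the GTPase factors. The proteins are needed in like amounts, their mRNAs are among the most abundant of growing cells, and in animals these mRNAs share a pyrimidine-rich start through which nutrient signalling controls their translation.

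The depth was close between libraries, at 4.4e6 to 5.2e6 unique reads in quinquefasciatus and 3.9e6 to 4.9e6 in pallens. Larval storage proteins (hexamerins and arylphorins) took 3.84% to 16.8% of the reads of a library and larval cuticle proteins 0.00059% to 0.288%. Vitellogenin and salivary D7 proteins, genes of adult females, took 0.00512% to 0.00992%. Pallens 6 and pallens 7 stood apart from the other 10 libraries, with storage proteins at 4.14% and 3.84% against 9.59% to 16.8%.

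Most of the 185 models were hardly read, and a distinct class of abundant models carried nearly all reads. A model was called full where its length reached 2/3 of the longest model of the same protein name and its mean RPKM (reads per kilobase of model and per 1e6 reads) reached 1/10 of the highest of that name and 1/10 of the median of all members. That rule kept 75 models, of which 8 were at low levels. The mean RPKM of full models broke between 29.2 and 330.2, so the 67 models with a mean of at least 100 RPKM are described below as the abundant models, a limit set after this gap was seen.

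The 118 other models had a median of 0.75 reads per library, and 99 of them averaged under 5 reads. Their median coverage, the percent of the model with a read on it, was 5.41% against 98.3% for the abundant models. All 118 together held 0.0446% to 0.105% of the reads of a library, while the 67 abundant models held 8.998% to 20.8%. Of the 185 members, 88 were read in all 12 libraries and 18 in only 1. The abundant models also differed in structure: 24 of 67 lengths were multiples of 3, against 111 of the 118 other models and 89.2% of all models.

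**Figure D1:**
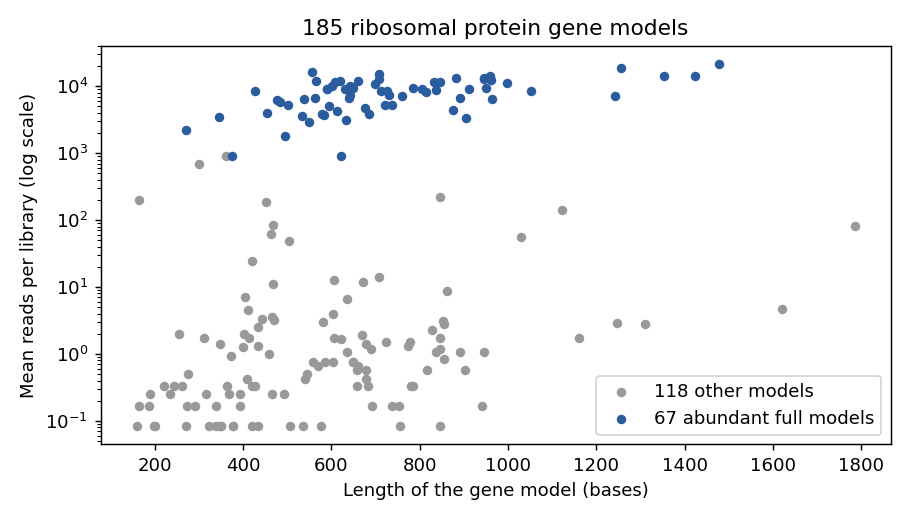
Each point is 1 of the 185 gene models, with its length in bases on the horizontal axis and its mean reads per library over 12 libraries on a log vertical axis; blue points are the 67 abundant full models and grey points the 118 other models. The abundant models, from 270 to 1477 bases long, form the upper band, and 99 grey points lie under 5 reads.

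The standard set of 79 protein names of the animal ribosome was searched for in the descriptions. A model carried 66 of these names and an abundant model carried 62: 25 of 32 names of the small subunit, 34 of 44 of the large subunit, and P0, P1 and P2 of the stalk. No description held S15a, S18, S21, L13, L23, L27a, L30, L34, L36, L36a, L39 or L40 in the form searched, and L41 stood only as a further name of an L44 model, which concerns the wording and not the genome. The abundant set also held models with wording outside that set: L15/L27 (CPIJ015042-RA), L44 L41 (CPIJ009651-RA), counted under L44, and 2 with 30S names. These were 30S S13P (CPIJ014165-RA) at a mean of 2278 RPKM and 30S S8 (CPIJ006671-RA) at 1564 RPKM. Their levels lay inside the range of the models named 40S or 60S. Whether models worded outside the standard set are proteins whose standard names were not found was not tested.

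The 2 remaining full models with 30S or 50S names were low. They were 50S L1 (CPIJ001620-RA), at a mean of 27.7 RPKM, and 30S S12 (CPIJ008389-RA), at 29.2 RPKM. The deposited gene ontology term of the former was the organellar large ribosomal subunit, so the label cytosolic goes against its annotation. Neither followed the abundant models across libraries. In quinquefasciatus 1 to 5, 50S L1 stood at 31.4, 42.4, 28.9, 42.9 and 25.01 CPM (counts per 1e6 reads, TMM-normalized), and in pallens its lowest, median and highest values were 25.1, 28.98 and 32.7 CPM. In the 2 libraries that stood apart it was at 32.3 CPM (pallens 6) and 25.2 CPM (pallens 7), inside the range of the rest.

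For 4 small-subunit proteins, S6, S9, S10 and S14, every model was short or low. S6, the target of the S6 kinase in animals, had 7 models with 19.6 reads per library in all. S14, a protein of the platform of the small subunit, had 23 models with 81.3 reads in all, more models than any other name. S9 had 1 to 8 reads in a library. S10 had 131, 146, 200, 165 and 218 reads in quinquefasciatus 1 to 5 and from 141 to 369 in pallens. The counts hold only unique reads, and reads shared by near-identical copies are not in them, so the levels of these 4 proteins are uncertain; how many reads were lost that way was not tested.

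In the other names with several models, 1 model took nearly all reads. S2 had 12 models, and its top model took 97.6% of their reads. S8 and L7 had 9 models each, with 99.9% and 97.7% on the top model. The top share was lowest for S28 at 66.7%, S26 at 81.0% and P0 at 91.2%, apart from S6 at 34.04% and S14 at 59.0%. In total, 25 standard names had more than 1 model.

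The abundant models were spread over 61 scaffolds of the assembly behind the tables, whose build name is not given in the sources used here. Close neighbours were few. L6 (CPIJ013940-RA, supercont3.525:159373-160334, minus strand) and S3 (CPIJ013941-RA, supercont3.525:165849-175772, plus strand), which sits at the mRNA entry of the small subunit, were 5515 bases apart with no model between them. The S28 models CPIJ015554-RA (supercont3.680:94410-94975) and CPIJ015556-RA (supercont3.680:102262-102637) were 7287 bases apart, both on the minus strand with 1 model between them. S23 and L32 were 7325 bases apart and S7 and S20 21642 bases apart. Of the abundant models, P2 alone overlapped another model, on the opposite strand, and that model averaged 1.42 reads.

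Per length, the abundant models were near the top of all transcripts: members made up 21 of the 50 models with the highest mean RPKM, 48 of the top 100 and 65 of the top 200. Their mean RPKM had a median of 2516, with quartiles at 1653 and 3276. The highest was L37 at 6626 RPKM and the lowest S24 at 330.2 RPKM, a 20.1-fold range. The median of mean RPKM was 1977 over the 26 models of the small subunit, 2656 over the 36 of the large subunit and 2588 over the 3 of the stalk.

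**Figure D2:**
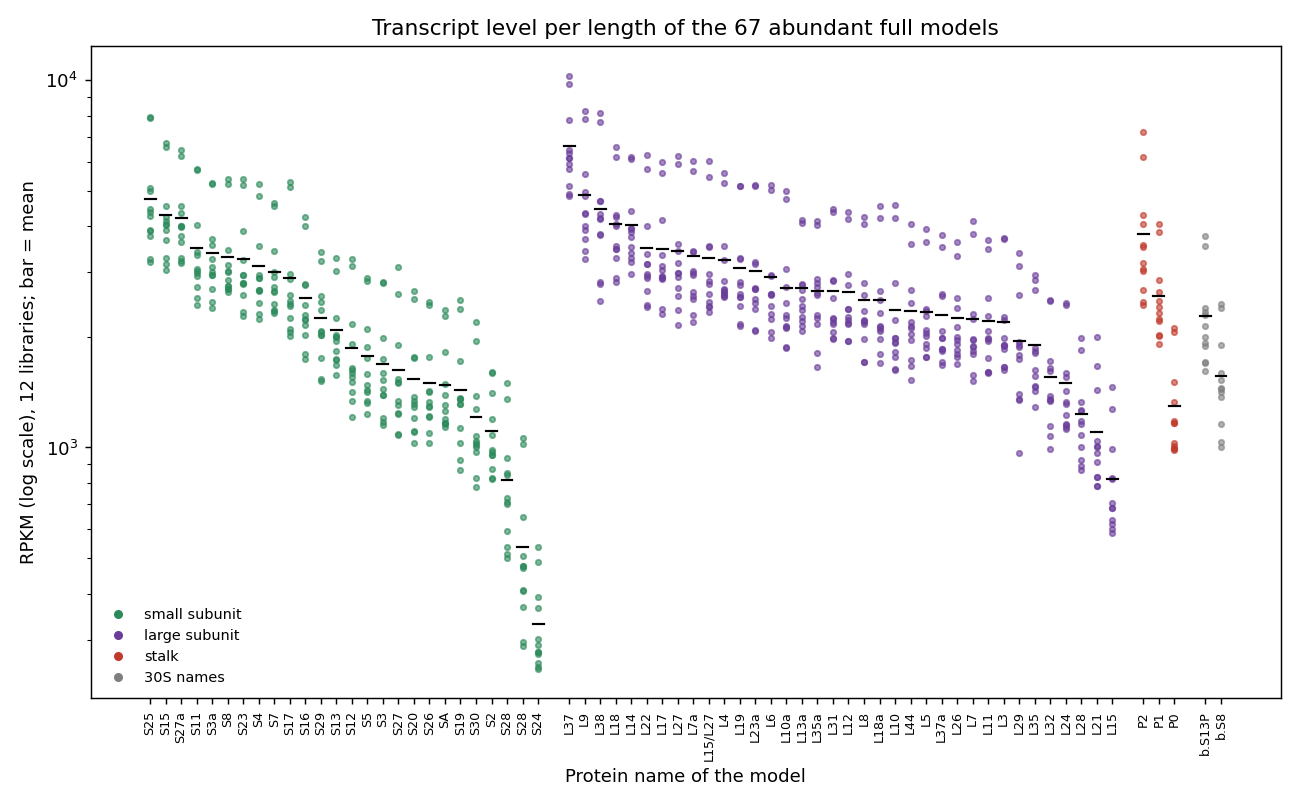
Points give the RPKM of each of the 67 abundant models in the 12 libraries on a log vertical axis, with the models grouped by subunit and ordered by mean on the horizontal axis; the black bar is the mean over 12 libraries. Means run from 330.2 RPKM for S24 to 6626 RPKM for L37, and the points of a model spread less than this full range.

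In the small subunit, the highest levels were those of S25, S15 and S27a. S25 (CPIJ013966-RA), a protein of the head of the subunit, was at 3259.9, 4993, 3772, 3198 and 4385 RPKM in quinquefasciatus 1 to 5, and its lowest, median and highest RPKM in pallens were 3890.1, 4448 and 7923. S15 (CPIJ001180-RA), a head protein near the decoding site, averaged 4285 RPKM. S27a (CPIJ003099-RA), which eukaryotes make as a fusion with ubiquitin, averaged 4221 RPKM. The groups overlapped for all 3, and in pallens the highest value came from pallens 6 or pallens 7.

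The lowest levels in the small subunit were those of S24 (CPIJ008982-RA) at a mean of 330.2 RPKM and of the S28 models at 814 and 536 RPKM. These models were also incompletely read: mean coverage was 49.7% for S24, 55.4% for S28 CPIJ015554-RA and 25.8% for S28 CPIJ015556-RA. Only 8 of the 67 abundant models had a mean coverage under 80%, the others being S26 at 64.1%, L24 at 71.2%, L26 at 73.1%, L35a at 75.5% and S3a at 77.6%. Whether the uncovered stretches were lost to shared reads, to model errors or to sequence differences from the reference was not tested.

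In the large subunit, L37 (CPIJ009411-RA), a small zinc-binding protein, was the highest. It stood at 5159.9, 7803, 4906, 4841 and 6147 RPKM in quinquefasciatus 1 to 5, and its lowest, median and highest RPKM in pallens were 5727, 6353 and 10296. L9 (CPIJ002453-RA), near the base of the stalk, followed with 4869 RPKM and L38 (CPIJ005613-RA), which in mouse is needed for translation of homeobox mRNAs, with 4474 RPKM. L8 (CPIJ000162-RA), which lies by the peptidyl transferase centre, averaged 2519 RPKM, and L3 (CPIJ007488-RA), which also reaches toward that centre, 2198 RPKM. L5 (CPIJ010112-RA) and L11 (CPIJ013343-RA), which bind the 5S RNA together, had close levels of 2335 and 2210 RPKM. L15 (CPIJ008103-RA) was the lowest of this subunit at 823 RPKM.

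The stalk proteins stood in the same order of level in every library, with P0 lowest and P2 highest, while their ratios varied. P0 (CPIJ009501-RA), the scaffold of the stalk, was at 999, 1328, 1012, 993 and 1167 RPKM in quinquefasciatus 1 to 5 and had its lowest, median and highest RPKM in pallens at 983, 1181 and 2110.0. P1 (CPIJ010918-RA) was 1.83 to 2.25 times as high as P0 in RPKM over the 12 libraries. P2 (CPIJ014062-RA) was 2.41 to 3.51 times as high as P0. In the assembled stalk of eukaryotes P0 carries P1 and P2 in more than a single copy each.

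The order of the abundant models by level was nearly the same in every library. Over the 66 pairs of libraries, Spearman's rho of RPKM across the 67 models was 0.939 to 0.991, with a median of 0.967. These points share model length and mapping, genes are not independent replicates, and the value is given as a description. The ratio of the highest to the lowest library was 1.96 to 3.70 per model, below the full 20.1-fold range between models. The low end of that range was S24, with a mean coverage of 49.7%. Most models lay closer together, with quartiles of mean RPKM at 1653 and 3276. Summed RPKM of the full small-subunit models was 0.578 to 0.622 times that of the large-subunit models. The abundant models numbered 26 and 36, with means per model of 2290 and 2780 RPKM. The ratio of sums thus also reflects how many models were found. With SDs over 7 and 5 libraries, the ratio was 0.600 ± 0.0191 in pallens and 0.592 ± 0.00929 in quinquefasciatus, and the groups overlapped.

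The summed level of the ribosomal protein transcripts differed between libraries far more than their proportions did. Members took 9.26%, 13.3%, 10.4%, 9.05% and 11.3% of the reads in quinquefasciatus 1 to 5. In pallens 1 to 7 they took 10.7%, 11.5%, 13.4%, 11.2%, 10.1%, 20.5% and 20.9%. Pallens 6 and 7 were above every other library, and the other 5 pallens libraries lay within the quinquefasciatus range or just above its highest value. The mean with its SD was 14.1% ± 4.67 over 7 pallens libraries and 10.6% ± 1.72 over 5 quinquefasciatus libraries, a difference of 3.41 percentage points that fell to 0.742 without pallens 6 and 7. In bulk larvae, more cells of a type that makes many ribosomes and more of these mRNAs per cell cannot be told apart.

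Other shares moved with that of the members in pallens 6 and 7. Elongation and release factors took 4.56% and 4.71% of reads there against 2.09% to 3.29% in the other 10 libraries, and initiation factors 1.66% and 1.77% against 0.752% to 1.19%. Ribosome biogenesis factors took 0.320% and 0.385% against 0.125% to 0.225%. Mitochondrial ribosomal proteins were at 0.126% and 0.141% against 0.0857% to 0.134%, and proteasome subunits at 0.232% and 0.252%, inside the range of 0.208% to 0.424% of the others.

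The larval storage proteins were low in the same libraries. Their share was 16.8%, 9.59%, 14.7%, 14.3% and 12.5% in quinquefasciatus 1 to 5, and 13.9%, 11.97%, 15.7%, 14.7%, 14.9%, 4.14% and 3.84% in pallens 1 to 7. Quinquefasciatus 2, which had the lowest storage share of its group, had the highest share on ribosomal proteins of that group. Pallens 3 went the other way. Its 13.4% on ribosomal proteins was the highest outside pallens 6 and 7, while its 15.7% on storage proteins was the highest in pallens. Cuticle proteins in pallens 6 and 7 took 0.578% and 0.479%, inside the range of 0.180% to 3.83% of the other libraries, and digestive serine proteases 0.399% and 0.499% against 0.491% to 1.41%. Muscle genes (myosin, troponin, tropomyosin and actin) took 6.50% and 4.46% there, against 4.82% to 9.59%. When storage and cuticle proteins were taken out of the total, members still held 21.5% and 21.9% in pallens 6 and 7 against 10.6% to 16.3% in the others. The part of larval stage, feeding state or tissue makeup in these shares was not tested.

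**Figure D3:**
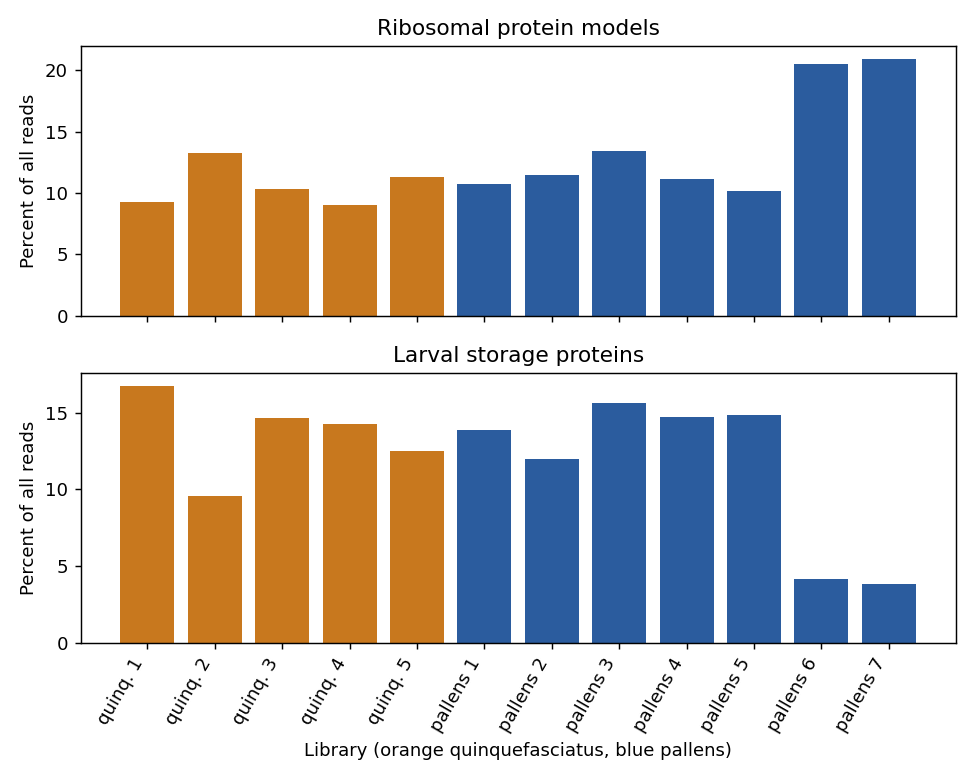
Bars give the percent of all reads of each library on the 185 ribosomal protein models (top) and on the larval storage proteins (bottom), with quinquefasciatus libraries in orange and pallens libraries in blue. Pallens 6 and 7 are at 20.5% and 20.9% in the top panel and at 4.14% and 3.84% in the bottom panel.

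The abundant models moved together from library to library. In pallens 6 and in pallens 7, all 67 lay above their own mean over 12 libraries of log2(CPM + 1), with medians of 0.67 and 0.53. In pallens 3, 66 of 67 lay above it and in quinquefasciatus 5, 65 of 67. In quinquefasciatus 1, quinquefasciatus 3 and pallens 5, 0 of 67 did, with medians of -0.47, -0.34 and -0.29. Quinquefasciatus 2 was split, with 37 of 67 above.

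The spread within a subspecies fell once that shared movement was taken off. The median SD of log2(CPM + 1) of the abundant models was 0.35, and it was 0.10 after the mean of the abundant models in each library was subtracted. The same step with each list's own mean took proteasome subunits, parts of another large complex, from 0.35 to 0.18. It left mitochondrial ribosomal proteins, also parts of a large complex, at 0.29. Initiation factors went from 0.37 to 0.34, elongation and release factors from 0.33 to 0.30, and tRNA synthetases from 0.35 to 0.32. Ribosome biogenesis factors went from 0.37 to 0.38. The SD of the lists of lower genes also holds counting error, which is small for the members at these counts.

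**Figure D4:**
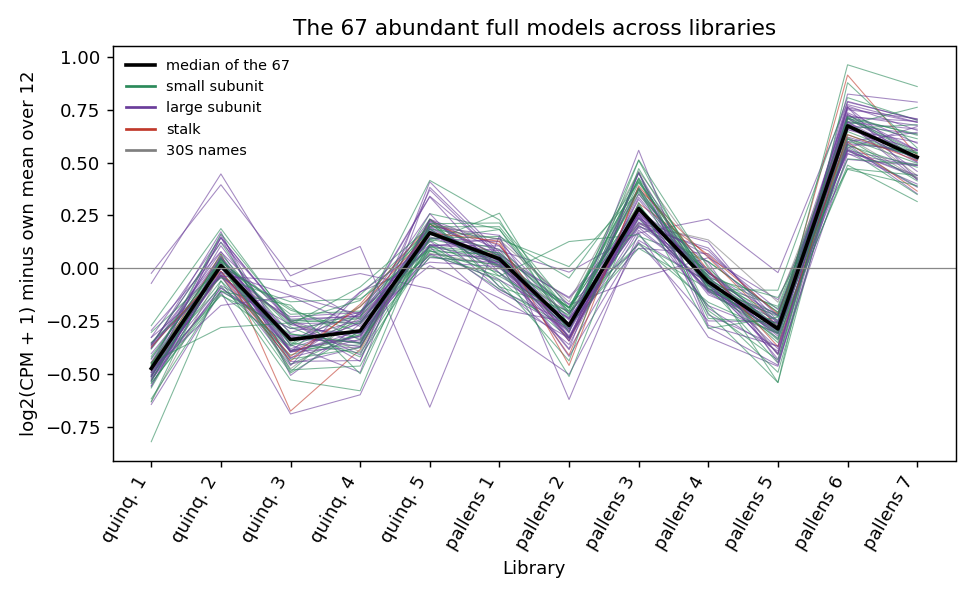
Each thin line is 1 of the 67 abundant models, coloured by subunit, and shows log2(CPM + 1) minus its own mean over 12 libraries; the black line is the median of the 67. The lines run close together, all above 0 in pallens 6 and 7 and all below 0 in quinquefasciatus 1, quinquefasciatus 3 and pallens 5, with L29 in quinquefasciatus 5 the clearest departure.

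A few models departed from the shared movement. L12 (CPIJ015286-RA), the protein at the base of the stalk that contacts the elongation factors, had the smallest SD of its value relative to the mean of the abundant models, 0.03 on the log2 scale. L29 (CPIJ004577-RA), a short basic protein at the surface of the large subunit, had the largest, 0.36. With its own mean over the 12 libraries also taken off, as for that SD, L29 was at 0.43, 0.38, 0.30, 0.39 and -0.81 in quinquefasciatus 1 to 5 and between -0.35 and 0.11 in pallens. Its level in quinquefasciatus 5 was 531 CPM, against 818 to 1104 CPM in the other 4 quinquefasciatus libraries.

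L35 (CPIJ012738-RA), which sits by the exit of the peptide tunnel, had a like pattern. On the same scale, relative to the abundant models and to its own mean over the 12 libraries, it was at 0.39, 0.43, 0.25, 0.26 and -0.25 in quinquefasciatus 1 to 5 and from -0.32 to 0.05 in pallens. Quinquefasciatus 5 thus lay inside the pallens range for L35, and below it for L29. L29 and L35 were singled out by the size of this SD, so the pattern is a description.

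The comparison of the subspecies asks which of these transcripts differed between pallens and quinquefasciatus. A fold change is pallens over quinquefasciatus from the edgeR quasi-likelihood test over all 10617 genes with enough reads, and a gene was called where the adjusted p (Benjamini-Hochberg) was under 0.05. Among all genes 0.537% were called, 0.339% as higher and 0.198% as lower in pallens. Of the 185 members, 83 had enough reads: all 67 abundant models and 16 others. In these 83, 1 was called higher, an S10 model of few reads, and 0 lower. That model had enough reads for the test only through pallens libraries. At an unadjusted p under 0.05, 8 members were higher and 1 lower, against 6.56% and 6.46% of all genes. DESeq2 called 2 of the members, with 2.78% of all genes called.

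None of the 67 abundant models passed the test: 0 were called by edgeR, DESeq2, limma-voom or limma on RPKM, and 2 had an unadjusted p under 0.05 in edgeR. The lowest adjusted p was 0.234 in edgeR and 0.0708 in DESeq2. Their log2 changes were nevertheless on one side, with 66 of 67 above 0 against 52.5% of all genes, and a median of 0.32 against 0.02. The small subunit had 26 of 26 above 0 with a median of 0.36, the large subunit 35 of 36 with 0.31, and the stalk 3 of 3 with 0.32, and the other 2 were the 30S names. Since the models move together from library to library, these counts are not separate pieces of evidence. Without pallens 6 and 7 the median was 0.14, with 61 of 67 above 0 against 49.1% of all genes.

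Each library was also scaled to the summed reads of the members, which by construction brings the median change of the members close to 0. It was then 0.00, that of all genes was -0.27, and 0 members were called by edgeR. Under that scaling the log2 change of L38 was 0.36 (adjusted p = 0.394) and that of the called S10 model 1.26 (adjusted p = 0.0912).

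**Figure D5:**
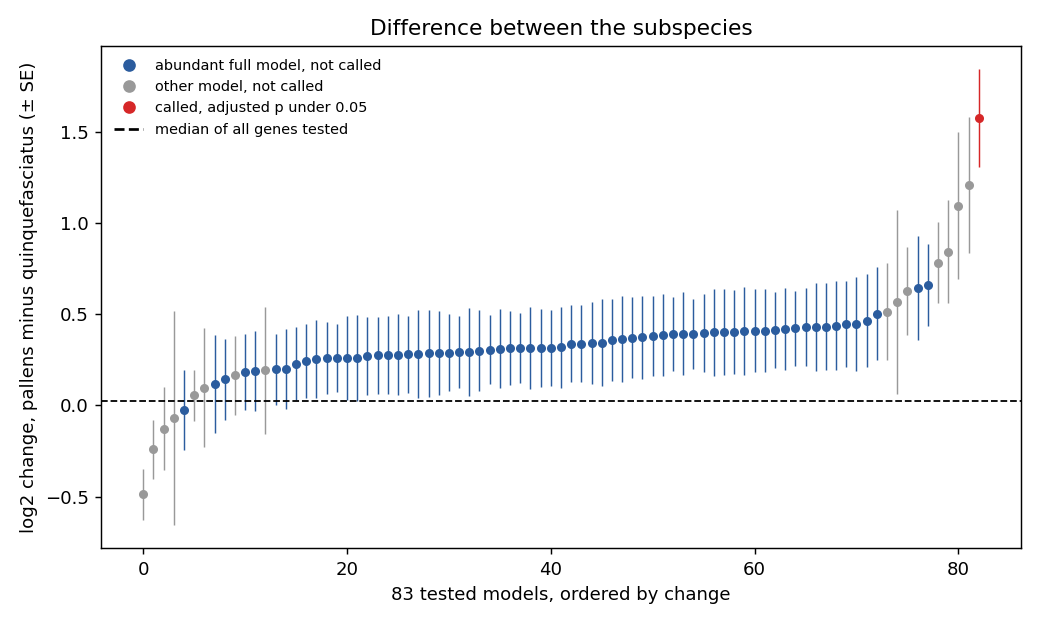
Points give the log2 change, pallens minus quinquefasciatus, of the 83 tested models with its SE, ordered by size; blue points are abundant models, grey points other models, and the red point is the called S10 model. The dashed line is the median of all genes tested, 0.02, and 78 of 83 points lie above 0.

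The largest change among the abundant models was that of L38. It stood at 1153, 1669, 1118, 1191 and 1949.8 CPM in quinquefasciatus 1 to 5 and its lowest, median and highest values in pallens were 1779, 2026 and 3115 CPM. The groups overlapped through quinquefasciatus 5 only, since the other 4 quinquefasciatus libraries lay below every pallens library. The log2 change was 0.66 (SE 0.22, adjusted p = 0.234).

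Both models of S28, a small protein of the mRNA exit channel, came next. S28 CPIJ015556-RA was at 105, 178, 128, 124 and 215 CPM in quinquefasciatus and at 151, 186 and 363 CPM (lowest, median, highest) in pallens, with a log2 change of 0.65 (SE 0.29, adjusted p = 0.368). S28 CPIJ015554-RA was at 245, 394, 272, 275 and 419 CPM in quinquefasciatus and at 260.5, 421 and 699 CPM in pallens, with a log2 change of 0.50 (SE 0.26, adjusted p = 0.416). The groups overlapped for both, and the incomplete coverage of these models applies to both values. L10 (CPIJ018688-RA), which is added late to the large subunit near the tRNA sites, had a log2 change of 0.47 (SE 0.25, adjusted p = 0.447).

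The stalk proteins had changes close to the rest of the large subunit. P2 was at 1564, 2279, 1359, 1665 and 2551 CPM in quinquefasciatus and at 1634, 2252 and 4100.5 CPM (lowest, median, highest) in pallens. Its log2 change was 0.45 (SE 0.26, adjusted p = 0.468), beside 0.31 for P1 and 0.32 for P0. The groups overlapped for all 3.

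At the other end, L35 had the lowest change of the abundant models. It was at 1039, 1489, 1027, 1073 and 1021 CPM in quinquefasciatus 1 to 5 and at 770.4, 919 and 1604 CPM (lowest, median, highest) in pallens. The pallens median lay below all 5 quinquefasciatus values while pallens 6 and 7 raised the mean, and the log2 change was -0.02 (SE 0.22, adjusted p = 0.979). L29 had a log2 change of 0.12 (SE 0.27, adjusted p = 0.877) and S24 of 0.14 (SE 0.22, adjusted p = 0.801). The low full models were at -0.24 for 50S L1 (SE 0.16, adjusted p = 0.532) and 0.06 for 30S S12 (SE 0.14, adjusted p = 0.887).

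S7 (CPIJ006763-RA) and L8 are transcripts of the kind used as reference genes in mosquito PCR work; they were picked out here after their values were seen. S7 was at 1931, 2705, 1928, 2191 and 2708 CPM in quinquefasciatus and from 1962 to 3702 CPM in pallens, and its highest library was 1.99 times its lowest in RPKM. L8 was at 1646, 2417, 2037, 1891 and 2831 CPM in quinquefasciatus and from 1922 to 3815 CPM in pallens, with a ratio of 2.49 in RPKM. Both followed the shared movement of the ribosomal protein transcripts, and neither passed the test, at adjusted p = 0.609 and 0.520.

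The called member was the S10 model CPIJ007531-RA, of 468 bases on supercont3.178:10729-22271, minus strand. It had 4, 5, 9, 6 and 4 reads in quinquefasciatus 1 to 5 and 10 to 23 reads, with a median of 14, in pallens. That is 0.767, 1.06, 1.61, 1.29 and 1.05 CPM in quinquefasciatus and 2.17, 3.55 and 4.63 CPM (lowest, median, highest) in pallens. Every pallens library lay above every quinquefasciatus library, which held in the same direction for 1 of the 83 members and 0.725% of all genes. The means with their SDs were 3.53 ± 0.864 CPM over the 7 pallens and 1.16 ± 0.316 CPM over the 5 quinquefasciatus libraries.

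Its log2 change was 1.58 (SE 0.27, adjusted p = 0.0244). The model passed the filter on low counts only through pallens libraries, where it is high. The call and the lack of overlap are therefore a description and no support for a difference between the subspecies. Without that filter the log2 change was 1.55 (adjusted p = 0.0385). With 1 library left out the log2 change was 1.45 to 1.74. The adjusted p passed 0.05 without quinquefasciatus 1 (adjusted p = 0.0981), quinquefasciatus 2 (0.0639), quinquefasciatus 3 (0.0593), quinquefasciatus 4 (0.0926), pallens 3 (0.0621), pallens 6 (0.0509) or pallens 7 (0.0524). Without pallens 6 and 7 together the called model did not pass the filter on low counts and was not tested. S10, a protein of the head of the small subunit, had most of its reads on a second model, CPIJ015987-RA, of 165 bases. That model was at 24.4, 29.9, 34.3, 34.1 and 56.3 CPM in quinquefasciatus and at 32.2, 46.5 and 69.8 CPM (lowest, median, highest) in pallens. The groups overlapped there, and the log2 change was 0.52 (SE 0.26, adjusted p = 0.421). With 26.5% of the called model covered by reads, reads of copies may have gone elsewhere, which was not tested.

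Short or low models of other names differed from their full partners. The short P0 model CPIJ003159-RA, of 300 bases and an average of 694 reads, was at 95.1, 125, 93.3, 93.3 and 140.3 CPM in quinquefasciatus and at 131, 171 and 267 CPM (lowest, median, highest) in pallens. Its log2 change was 0.79 (SE 0.22, adjusted p = 0.156 in edgeR and 0.0173 in DESeq2), beside 0.32 for the full P0 model. Divided by the full P0 model in the same library, its RPKM was 0.282 to 0.336 in quinquefasciatus and 0.403 to 0.511 in pallens, with no overlap. This ratio was picked out after the values were seen and was not tested.

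The short S26 model CPIJ016775-RA, of 362 bases, went the other way against its full partner CPIJ006480-RA. Its RPKM over that of the full model was 0.485, 0.545, 0.579, 0.454 and 0.321 in quinquefasciatus 1 to 5 and 0.222 to 0.412 in pallens, so that quinquefasciatus 5 lay inside the pallens range. The short model itself had a log2 change of -0.13 (SE 0.23, adjusted p = 0.834). The low S3a model CPIJ004845-RA, of 1785 bases, was the member that lay lower in every pallens library than in every quinquefasciatus library, where 0.499% of all genes did so. It was at 18.02, 22.2, 20.99, 23.4 and 21.3 CPM in quinquefasciatus and at 11.8, 15.3 and 17.2 CPM (lowest, median, highest) in pallens, with a log2 change of -0.49 (SE 0.14, adjusted p = 0.156).

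Some low models had most of their reads in some libraries or lacked them in others. The S24 model CPIJ009083-RA, of 605 bases, had 37 reads in quinquefasciatus 5 and 107 in pallens 1, and 0 to 3 in the other 10 libraries. The S14 model CPIJ007174-RA had 0 reads in pallens 1 and 29 to 90 in the other 11 libraries. A count of 0 allows up to 3 reads. The S6 model CPIJ016021-RA had 15, 14, 19, 13 and 2 reads in quinquefasciatus 1 to 5 and 0 to 4 reads, with a median of 3, in pallens. The S6 model did not pass the filter on low counts over 12 libraries, and without that filter it was not called, with a log2 change of -2.15 (adjusted p = 0.0851). Without quinquefasciatus 5, the library of its group with fewest reads of it, it passed the filter and was called lower in pallens. The log2 change was then -2.37 (adjusted p = 0.00931), where 0.645% of all genes were called lower and 1.28% higher. The library left out lay inside the pallens range, and the model passed the filter only through the other quinquefasciatus libraries. That call is therefore no support for a difference between the subspecies.

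The low L7 model CPIJ012743-RA, of 846 bases, was read over 93.5% of its length. It was at 30.7, 70.3, 28.5, 29.4 and 26.3 CPM in quinquefasciatus 1 to 5, at 91.4 CPM in pallens 6 and at 148 CPM in pallens 7, and between 21.1 and 35.8 CPM in the other 5 pallens libraries. The libraries in which it was high were those in which the share of reads on the members was highest in each subspecies. Its own log2 change between the subspecies was 0.57 (SE 0.51, adjusted p = 0.638).

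Lists of other genes, drawn by description words for translation, ribosome making and the proteasome, had 4 called models in all. All were higher in pallens, where 0.339% of all genes were called higher. The 4 include an Argonaute model, named below, that is no initiation factor by function. Mitochondrial ribosomal proteins had 1 of 70 tested models higher in pallens and 0 lower, with a median log2 change of 0.21. At an unadjusted p under 0.05, 13 of the 70 were higher and 1 lower, against 6.56% and 6.46% of all genes. Models described as initiation factors had 2 of 46 higher and 0 lower, with a median of 0.15, and ribosome biogenesis factors 1 of 35 higher and 0 lower, with a median of 0.09. In elongation and release factors (20 tested, median 0.17), tRNA synthetases (33 tested, median 0.10) and proteasome subunits (34 tested, median 0.13), 0 were called by edgeR or limma-voom, and DESeq2 called 1 proteasome subunit. At an unadjusted p under 0.05, elongation and release factors had 1 higher and 0 lower, tRNA synthetases 5 and 3, proteasome subunits 1 and 0, initiation factors 2 and 2, and biogenesis factors 1 and 2.

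The called genes of these lists were named by the descriptions. Mitochondrial 28S S22 (CPIJ007012-RA) was at 23.1 ± 5.40 CPM (mean and SD) in the 7 pallens and 10.5 ± 2.04 CPM in the 5 quinquefasciatus libraries, a log2 change of 1.14 (SE 0.19, adjusted p = 0.0244). A model described as subunit 4 of initiation factor 3 (CPIJ015350-RA) was at 10.2 ± 3.48 and 1.65 ± 0.997 CPM, a log2 change of 2.63 (SE 0.38, adjusted p = 0.0122). Subunit 4 of the H/ACA ribonucleoprotein complex (CPIJ006466-RA), the pseudouridine synthase of ribosomal RNA, was at 15.1 ± 5.89 and 2.84 ± 1.37 CPM, a log2 change of 2.41 (SE 0.34, adjusted p = 0.0122). A model described as initiation factor 2C 2 (CPIJ006138-RA), the older name of an Argonaute protein of small RNA silencing and thus no initiation factor by function, was at 21.2 ± 7.25 and 7.005 ± 2.21 CPM, a log2 change of 1.59 (SE 0.29, adjusted p = 0.0299).

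As a share of the summed reads of the members in the same library, few members separated the subspecies. Of the 83 tested, 2 lay higher in every pallens library than in every quinquefasciatus library, where 0.386% of all genes did so, and 1 lay lower, where 1.01% did. The higher ones were S23 (CPIJ001218-RA), a protein of the decoding site, and the short P0 model, and the lower one was L26 (CPIJ004073-RA), which lies near the tunnel exit. Relative to the mean log2(CPM + 1) of the abundant models in place of the summed reads, S23 overlapped between the subspecies, with pallens 6 below quinquefasciatus 1 and 4, while the short P0 model and L26 still separated. These 3 were named after their values were seen.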

How the data were processed

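Each library's table was made by the authors and, per the file headers, gives for each gene model a count of uniquely mapped reads, the length in bases, the percent of the length covered and an RPKM value, which equalled count over length and library total, to rounding. The aligner, counter, annotation version and build were not given in the sources used here; a model without a row in a table was set to 0 reads. The library kit and the pools of 30 larvae are as the labels' protocols state. Without strand, reads of overlapping models cannot be told apart.

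The deposited counts of all genes were fitted in edgeR 4.0.16 (R 4.3.3) with TMM, filterByExpr and the robust quasi-likelihood test, pallens minus quinquefasciatus over 12 libraries, adjusted by Benjamini-Hochberg over 10617 genes; the biological coefficient of variation was 42.0%. CPM values are TMM-normalized. A count of 3 reads, the limit for a count of 0, was 0.579 to 0.772 CPM before TMM, and covers counting error only. The fit was also run on simulated counts drawn independently for each gene. The members moved together, so that run gives no assurance about them. DESeq2 1.42.0 and limma 3.58.1, other scalings, filters and thresholds, other rules for full models and left-out libraries were alternatives. Limma on RPKM used a pseudocount of 1 or 0.1.

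The named genes were every member called, the full models at the extremes of level (6 highest, 4 lowest), change (5 and 5) and spread (3 and 3), the stalk proteins, the ubiquitin fusion, and names with more than 1 model. Of the lowest full models, S3e (CPIJ016019-RA) averaged 0.234 RPKM and 3 S6 models 0.483 to 0.652 RPKM. Related lists were made from description words; 0 models matched the nascent polypeptide-associated complex. The members and lists were chosen with earlier results of these data known. No sequence is printed, because the files hold none.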

Additional observations from a re-analysis of the deposited data

Results flagged for a closer look

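In a test of the highest and lowest library of each subspecies against the rest of its group, 6 of the values tested were flagged. It was run on 92 values in each subspecies, and chance flags about 1 in 20 groups. The 6 flags were fewer than that rate would give, and many of the values moved together. They are listed as a description. In quinquefasciatus 5, S2 (CPIJ010326-RA), a protein of the mRNA entry tunnel, was at 1263 CPM, with the next library at 804 CPM. In quinquefasciatus 2, L35 was at 1489 CPM (next 1073), the low L7 model CPIJ012743-RA at 70.3 CPM (next 30.7), cuticle proteins at 1.82% of reads (next 0.621%) and ribosome biogenesis factors at 0.225% of reads (next 0.149%). In pallens 3, the low S14 model CPIJ011289-RA was at 7.21 CPM (next 3.78).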

How the results depend on the processing

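No paired analysis was possible because the labels number no replicates; the numbers used here follow accession order and tie no libraries together. The called S10 model kept its direction under every alternative that tested it. The 49 named genes with a test had 1217 values under alternatives, of which 42, from 21 uncalled genes, had the other sign, 18 of them when scaled to the members. The 57 genes called over all tested became 295 with DESeq2, 92 with limma-voom, 118 and 110 with limma on RPKM (pseudocount 1 and 0.1), 5 without pallens 6 and 7, 366 without pallens 1 and quinquefasciatus 5, 2 and 143 at adjusted p under 0.01 and 0.1, and 9 to 229 with 1 library left out (above 57 without pallens 1 or quinquefasciatus 5, below it without any other). The 1 member called became 0 when scaled to the members, at adjusted p under 0.01 and among abundant models only. The count became 2 with DESeq2 and without pallens 1 and quinquefasciatus 5, and 0 to 2 with 1 library left out (2 without quinquefasciatus 5). Without pallens 6 and 7 it was also 0, but the S10 model did not pass the filter there and was not tested. The 4 called genes of the related lists became 2 when scaled to the members, 8 with DESeq2, 1 without pallens 6 and 7, 13 without pallens 1 and quinquefasciatus 5, 0 at 0.01 and 0 to 11 with 1 library left out (0 without quinquefasciatus 3, 11 without quinquefasciatus 5). The median log2 change of the members was 0.24 to 0.44 with 1 library left out, and that of the full models 0.23 to 0.44. The difference in share was 2.26 to 4.06 percentage points with 1 library left out and 3.52 with storage and cuticle proteins out of the total. The cause of these shifts was not tested. Low models rest on few reads, and only unique reads were counted.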
